A study of Drosophila melanogaster with 2 samples.

Results

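The Osiris, chitin and apical matrix genes are 55 of the 13623 genes in an expression table of Drosophila nuclear RNA. They were chosen by symbol as every gene called Osi, Cht or obst with a number or letter, together with kkv, knk, rtv, serp, verm, mmy, pio, dp, dy, dyl, m, f and neo. The group was picked because Osi genes had some of the largest differences between the same 2 libraries, so the values below describe these libraries and test nothing. Glial nuclei came from embryos 12 to 14 h after egg laying, in which repo-Gal4 switched on the nuclear tag. GNP nuclei (Gcm-expressing neural progenitors, which the labels call early glial cells) came from embryos 5 to 7 h after egg laying. In these gcm-Gal4 did so, in a line that also held UAS-mCDGFP. The labels place the repo-Gal4 line over a balancer spelled Tm3B and the gcm-Gal4 line over cyo. The paper's methods write Tm3 for the first and name no Cyo in the final gcm-Gal4 line. Both lines carried UAS-3xFLAG-blrp-mCherry-RanGap, whose product sits on the nuclear envelope, and tagged nuclei were pulled from homogenates of whole cross-linked embryos with anti-Flag beads (the INTACT method). The gcm driver is also active in hemocyte precursors, so the GNP nuclei need not be neural alone. The paper took up this point. In GNP it found neural progenitor genes above hemocyte lineage and other tissue-specific genes, in expression and in active histone marks. From this it proposes that the GNP cells are mainly neural progenitors. In glial nuclei it likewise found glia-specific genes above those of other tissues. It also reported high purity of both sets of nuclei, measured as the share with the mCherry tag. The labels also give a 2 h collection and 3 or 10 h of further development, which do not add up to these ages. The paper's methods give 5 or 12 h after the 2 h collection, which do, and the ages were used as labelled. There was 1 library of each cell type, and cell type, driver line and embryo age changed together and cannot be told apart. In RNA pooled from many nuclei, fewer cells of a type and less RNA per cell cannot be told apart either.

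Insect epithelia cover their outer surface with an apical extracellular matrix, and in the late Drosophila embryo the epidermis, trachea, foregut and hindgut build the first larval cuticle. The enzyme encoded by kkv spins chitin from UDP-N-acetylglucosamine, deacetylases and chitin-binding proteins order the fibres, chitinases cut them, and zona pellucida (ZP) proteins such as Dumpy tie the membrane to the matrix. Osiris genes are an insect family that encodes predicted secreted or membrane proteins. Most of them sit in a single genomic cluster and are known for expression in cuticle-secreting epithelia. Glia do not make a chitin cuticle. Markers of cuticle-forming cells are given below, and whether such cells had a part in the values was not tested.

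Levels are FPKM, reads scaled by the authors to transcript length and library size. A change is log2((FPKM in glia + 1)/(FPKM in GNP + 1)), so that 1 is 2-fold, and the added 1 understates changes of genes near 0. Of the 55 genes, 36 exceeded their GNP level 2-fold or more in glia, as did 21.2% of all genes in the table. Only obst-E was lower by 2-fold or more, as were 16.4% of all genes. The median change over the 55 genes was 2.50, and over all genes it was 0.04. A 4-fold higher level in glia was reached by 30 of the 55 genes and by 8.46% of all genes. A 16-fold higher level was reached by 11 of the 55 genes, 10 of them Osi genes, and by 0.609% of all genes. Together the 55 genes made up 1.18% of the FPKM sum of the glia library and 0.0728% of that of the GNP library. A mean of at least 1 FPKM was reached by 42 of the 55 genes, and the other 13 were near 0 in both libraries. Since the group was picked for its large differences, these shares describe the choice and are not evidence about it.

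**Figure D1:**
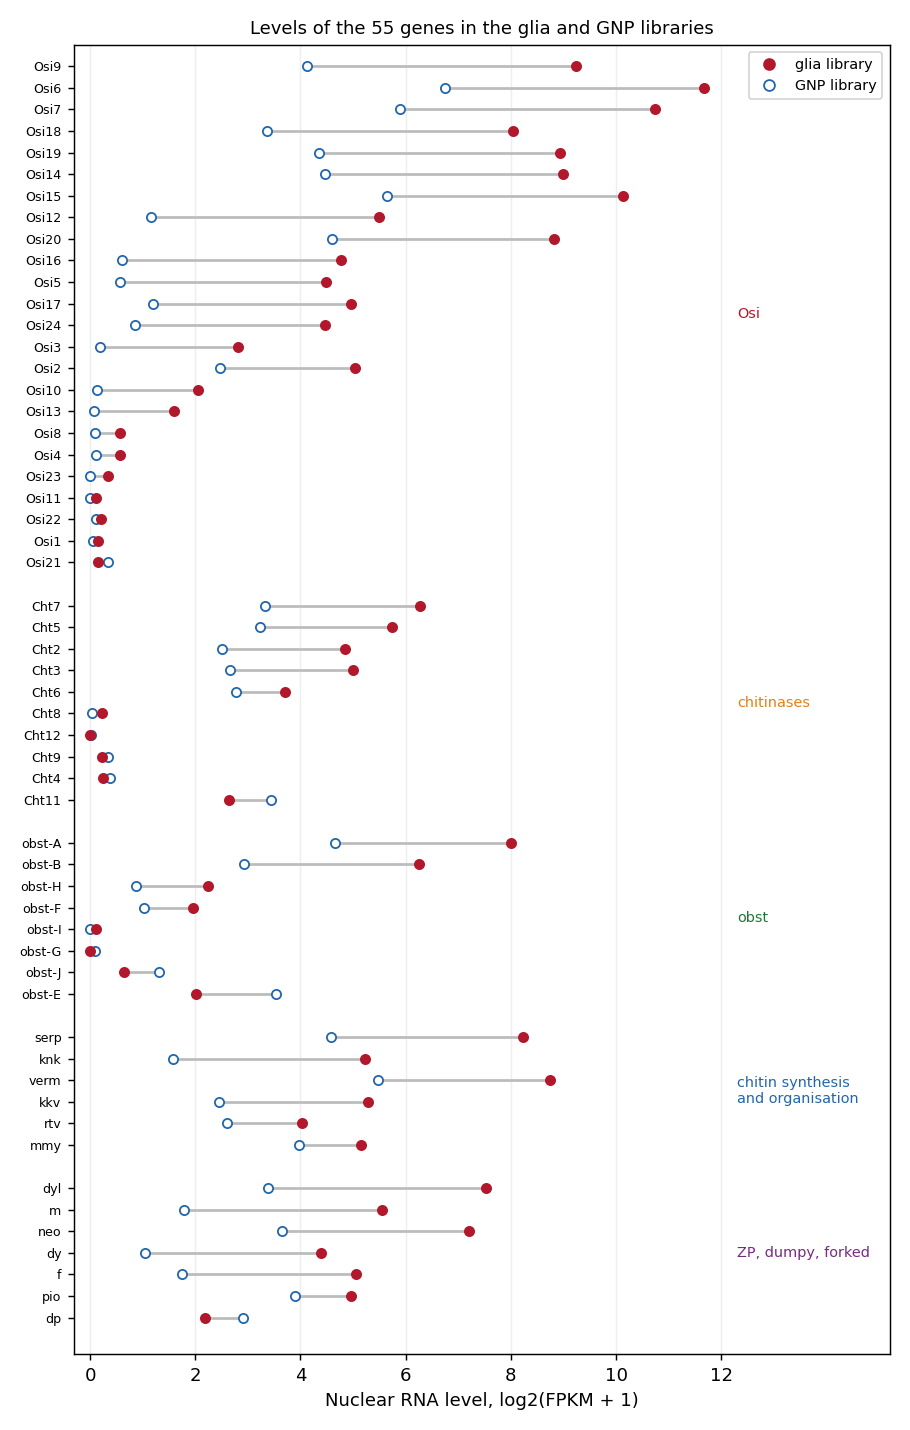
Level of each of the 55 genes as log2(FPKM + 1) in the glia library (filled) and the GNP library (open), ordered by change within each group, 1 library of each. In the 36 genes with a 2-fold higher level in glia the filled point lies to the right, in obst-E the open point does, and genes near 0 in both libraries lie at the left edge.

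The Osi family held the largest differences. Of its 24 genes, 17 were higher in glia by 2-fold or more, 15 of them at least 4-fold, and none was 2-fold lower. The median change was 3.69. Osi6 was the most abundant member in either library, at 3283 FPKM in glia and 106.5 FPKM in GNP, a change of 4.93. It ranked 67 of all 13623 genes by level in glia and 958 in GNP. Osi7 was at 1716 FPKM in glia and 58.7 FPKM in GNP, and Osi15 was at 1122 FPKM in glia and 49.2 FPKM in GNP. These 3 genes carried 71.0% of the summed Osi FPKM in glia and 68.3% in GNP, so the same few genes dominated the family in both libraries. Summed over the family the level was 8615 FPKM in glia and 314 FPKM in GNP.

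The next 5 genes by level in glia were Osi9, Osi14, Osi19, Osi20 and Osi18. Osi9 was at 601 FPKM in glia and 16.5 FPKM in GNP, the largest change of the family at 5.10 and the fifth largest of all genes. Osi14 was at 506 FPKM in glia and 21.2 FPKM in GNP, a change of 4.51. Osi19 was at 487 FPKM in glia and 19.4 FPKM in GNP, a change of 4.58. Each of these was already above 10 FPKM in GNP, as was Osi20, at 451 FPKM in glia and 23.3 FPKM in GNP with a change of 4.22. Osi18 was at 262 FPKM in glia and 9.28 FPKM in GNP, a change of 4.67.

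A middle tier was clearly present in glia and at or near 1 FPKM in GNP. Osi12 was at 44.1 FPKM in glia and 1.24 FPKM in GNP. Osi17 was at 30.3 FPKM in glia and 1.304 FPKM in GNP, and Osi16 was at 26.2 FPKM in glia and 0.524 FPKM in GNP. Osi5 was at 21.3 FPKM in glia and 0.476 FPKM in GNP, and Osi24 was at 21.0 FPKM in glia and 0.805 FPKM in GNP. The changes of this tier ran from 3.61 for Osi24 to 4.33 for Osi12. Osi2 stood apart from it, because it was at 31.9 FPKM in glia but already at 4.53 FPKM in GNP, a change of 2.57.

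The lowest of the changed genes were Osi3, Osi10 and Osi13. Osi3 was at 6.0004 FPKM in glia and 0.147 FPKM in GNP, a change of 2.61. Osi10 was at 3.15 FPKM in glia and 0.101 FPKM in GNP, a change of 1.91. Osi13 was at 2.02 FPKM in glia and 0.0471 FPKM in GNP, a change of 1.53, which was the family member closest to the 2-fold limit from above. The 7 remaining genes, Osi1, Osi4, Osi8, Osi11, Osi21, Osi22 and Osi23, lay between 0.0786 and 0.488 FPKM in glia and between 0 and 0.261 FPKM in GNP, and none changed by 2-fold. With an added 0.1 in place of 1, Osi4, Osi8 and Osi23 passed the limit, at changes of 1.64, 1.82 and 1.89, and the family's count was 20. Osi11 and Osi23 were listed at 0 in GNP. Osi23, known as gore-tex for its part in the pores of olfactory bristles, was at 0.270 FPKM in glia. Osi21 was the only Osi gene with a lower value in glia, at 0.113 FPKM in glia and 0.261 FPKM in GNP.

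On the plain ratio of FPKM values, without the added 1, the 22 Osi genes above 0 in both libraries ran from 0.431 for Osi21 to 49.9 for Osi16, with a median of 25.6. Osi22 had a ratio of 1.95, Osi1 of 2.44, Osi4 of 5.59 and Osi8 of 7.33. The 17 genes at 1 FPKM or more in glia had ratios from 7.03 for Osi2 to 49.9, with a median of 29.2. These 17 were kept by their level in glia, which also enters the ratio, so their narrower range describes that choice. Of the 22 genes, 16 had a ratio of at least 16, as had 2.76% of all 12303 genes above 0 in both libraries, whose median ratio was 1.15. The set of 22 was added after the values had been seen. The order of the 24 Osi genes by level was similar in the libraries (Spearman rho 0.95 across genes, which are not replicates). Over all genes it was 0.87.

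**Figure D2:**
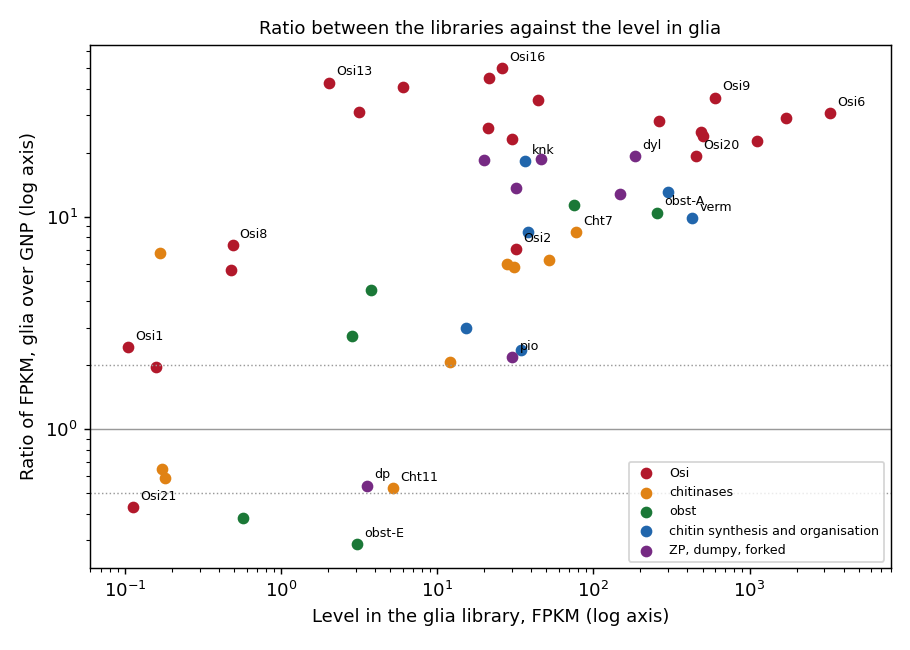
Ratio of FPKM in glia to FPKM in GNP against the level in glia, both on log axes, for the 50 genes above 0 in both libraries. The Osi genes spread from 0.431 (Osi21) to 49.9 (Osi16), with Osi22, Osi1, Osi4 and Osi8 at low levels between 1.95 and 7.33, and the other groups reach at most 19.3 (dyl). The dotted lines mark a ratio of 2 in either direction.

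The depth behind these values can be estimated for genes with 1 annotated transcript, because low FPKM values fall on steps of whole reads. Intervals from such read numbers cover counting error only, and not the difference between 2 preparations. Osi9 stood on about 36225 reads in glia and 1218 in GNP, which gave its ratio of 36.4 a 95% interval of 34.4 to 38.6. Osi20 stood on about 24941 reads in glia and 1579 in GNP, and its ratio of 19.3 had an interval of 18.4 to 20.3, so the ratios of Osi9 and Osi20 differed by more than counting error. Osi16 had about 29 reads in GNP, and its ratio of 49.9 had an interval of 34.2 to 74.0, which overlaps that of Osi9. Osi13 had about 138 reads in glia and 4 in GNP, and its ratio of 42.8 could lie anywhere between 16.1 and 157. Osi8 had about 24 reads in glia and 4 in GNP, a ratio of 7.33 with an interval of 2.52 to 29.1. For Osi1, with about 5 reads in glia and 3 in GNP, and for Osi22, with about 8 reads in glia and 5 in GNP, no difference was detectable at this depth. The same held for Osi21, with about 6 reads in glia and 17 in GNP and an interval of 0.139 to 1.15.

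The genes were chosen by symbol, but Osi1 to Osi20 lie in number order along chromosome arm 3R, so symbol and position are not independent. In the BDGP6 annotation, a later build than that of the authors, 21 of the 24 Osi genes lay in a single run on chromosome arm 3R, and all 17 that were 2-fold higher were among these 21. Osi22 and Osi23 lie elsewhere on 3R and Osi21 on 2L. These 3 reached at most 0.270 FPKM in glia and 0.261 FPKM in GNP. Within the run, abundant genes sat beside genes near 0. Osi8 was at 0.488 FPKM in glia and 0.0665 FPKM in GNP, and it lies between Osi7 and Osi9. Osi11 lies between Osi10 and Osi12 and was at 0.0786 FPKM in glia and 0 in GNP. Osi10 of the table is annotated as 2 genes in BDGP6, Osi10a and Osi10b, so its value may cover more than 1 present-day gene.

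The run also holds 5 genes of the table that do not belong to the family, and 2 of them were at least 2-fold higher in glia. Over all genes the share was 21.2%. CG15594, next to Osi13, was at 9.59 FPKM in glia and 0.322 FPKM in GNP, a ratio of 29.8. CG31556, next to Osi16, was at 3.67 FPKM in glia and 0.164 FPKM in GNP, a ratio of 22.4. NPFR1, a neuropeptide F receptor gene between Osi1 and Osi24, was at 1.55 FPKM in glia and 0.283 FPKM in GNP, a change of 0.99. CG15597 and CG31560 stayed under 1 FPKM in both libraries. Of the 10 genes that flank the run, 4 were at least 2-fold higher and 2 at least 2-fold lower, beside 21.2% and 16.4% of all genes. CG17917 and CG10298, which come directly after Osi20, were the 2 lower genes, at 0.528 and 0.525 FPKM in glia and 2.10 and 2.23 FPKM in GNP. On the other side CG31559 was at 59.8 FPKM in glia and 3.17 FPKM in GNP, but it is separated from Osi24 by CG1077, Osi1 and NPFR1, which were all under 2 FPKM in glia. All 5 genes on the Osi1 side had higher values in glia, with ratios from 1.55 for Obp83g to 18.8 for CG31559. The Osi20 side was mixed, with both lower genes and with CG17919 at 46.7 FPKM in glia and 3.94 FPKM in GNP.

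**Figure D3:**
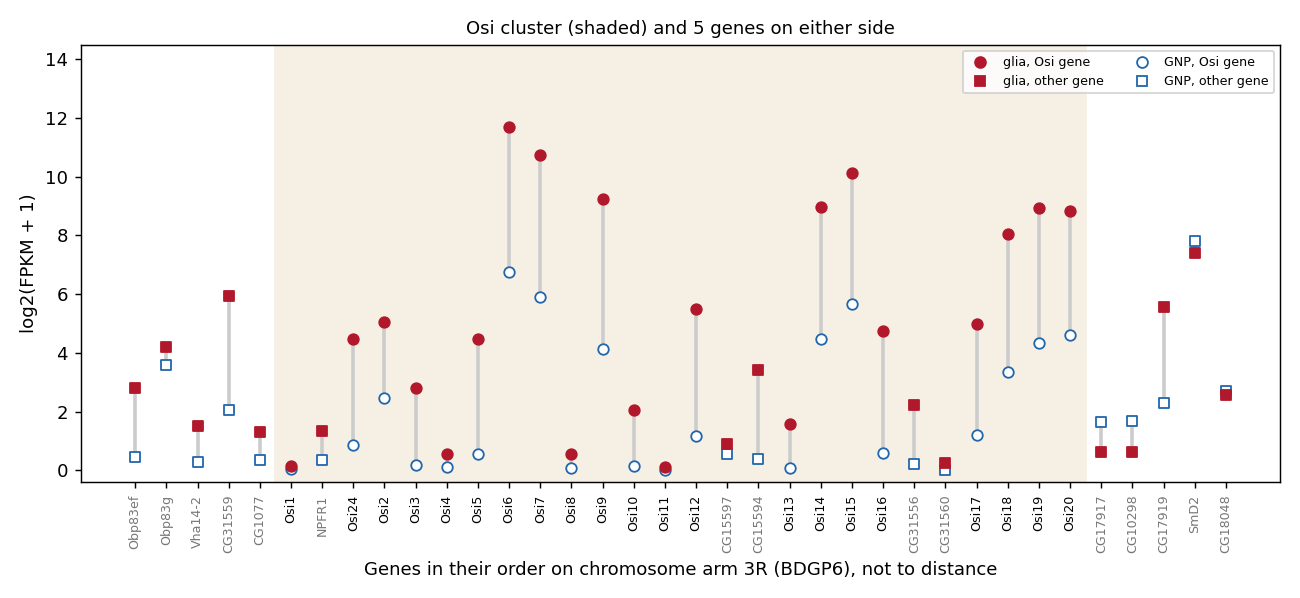
Level as log2(FPKM + 1) of the genes of the Osi run on chromosome arm 3R (shaded) and of 5 genes on either side, in BDGP6 gene order and not to distance. Filled symbols are the glia library, open symbols the GNP library, circles Osi genes and squares other genes. The long bars from Osi24 to Osi20 are interrupted by genes near 0 in both libraries, such as Osi4, Osi8 and Osi11.

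The genes that make and order chitin were all higher in glia, 6 of 6 by at least 2-fold with a median change of 3.05. The deacetylase genes serp and verm, which limit the length of tracheal tubes and lie next to each other on chromosome arm 3L, were the most abundant. Levels of serp were 299 FPKM in glia and 22.9 FPKM in GNP, a change of 3.65. Levels of verm were 428 FPKM in glia and 43.4 FPKM in GNP, a change of 3.27. The chitin synthase gene kkv was at 38.1 FPKM in glia and 4.48 FPKM in GNP, a change of 2.83. Next to it in level was knk, whose membrane-anchored product shields new chitin from chitinases, at 36.4 FPKM in glia and 2.00 FPKM in GNP. The ratio of knk was 18.2 with a counting interval of 16.2 to 20.5, and its change of 3.64 exceeded that of kkv. The smallest differences in the group were those of rtv, needed to deliver Knickkopf to the surface, and mmy, which makes the UDP-N-acetylglucosamine that many other glycosylation pathways also use. Levels of rtv were 15.3 FPKM in glia and 5.09 FPKM in GNP, a change of 1.42. Levels of mmy were 34.6 FPKM in glia and 14.7 FPKM in GNP, a change of 1.18 that fell to 0.95 when each library was scaled to TPM, which gives both the same sum.

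The chitinases, which degrade chitin, were mixed, with 4 genes higher in glia, 4 near 0, Cht6 just under the 2-fold limit and Cht11 lower in glia. Of the 10 genes none was 2-fold lower, and the median change was 0.56. Over all genes 21.2% were at least 2-fold higher and 16.4% at least 2-fold lower. Cht7 was at 76.9 FPKM in glia and 9.04 FPKM in GNP, a change of 2.95 and a ratio of 8.50 with a counting interval of 8.13 to 8.90. Cht5 was at 52.2 FPKM in glia and 8.37 FPKM in GNP, a ratio of 6.23 with an interval of 5.83 to 6.67. Cht3, which BDGP6 calls Cht10, was at 31.1 FPKM in glia and 5.35 FPKM in GNP, and Cht2 was at 27.9 FPKM in glia and 4.66 FPKM in GNP. The ratios of these 4 genes ran from 5.80 to 8.50. Cht6 lay just under the 2-fold limit, at 12.1 FPKM in glia and 5.83 FPKM in GNP with a change of 0.94, and passed it under another scaling. Cht11 was lower in glia, at 5.23 FPKM in glia and 9.87 FPKM in GNP, a change of -0.80. Cht4, Cht8, Cht9 and Cht12, which lie side by side on chromosome arm 2R, were at most at 0.179 FPKM in glia and 0.305 FPKM in GNP, and Cht12 was listed at 0 in glia. With an added 0.1 in place of 1, Cht8 passed the limit at 1.10, on about 11 reads in glia and 2 in GNP. Exons of Cht8 and Cht12 overlap on opposite strands, and without strand information their reads cannot be told apart.

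The obst genes encode secreted proteins with chitin-binding domains, and they were the only group with changes of 2-fold in both directions. Of 8 genes, 3 were higher in glia by 2-fold or more and 1 was lower, with a median change of 0.52. These counts were 37.5% and 12.5% of the group, beside 21.2% and 16.4% of all genes. The cuticle scaffold gene obst-A was at 254 FPKM in glia and 24.3 FPKM in GNP, a change of 3.34. Levels of obst-B were 75.3 FPKM in glia and 6.65 FPKM in GNP, a change of 3.32. Far lower, obst-H was at 3.75 FPKM in glia and 0.828 FPKM in GNP, a change of 1.38. The gene obst-E, which shapes the larval and pupal body, went the other way. It was at 3.05 FPKM in glia and 10.7 FPKM in GNP, a change of -1.52. Just under the 2-fold limit, obst-F was at 2.86 FPKM in glia and 1.04 FPKM in GNP, a change of 0.92. Its plain ratio was 2.74 with a counting interval of 1.98 to 3.78. It passed the limit with an added 0.1, at 1.37, and with scaling to the upper quartile, at 1.06. Levels of obst-J were 0.569 FPKM in glia and 1.49 FPKM in GNP. Neither obst-G nor obst-I exceeded 0.1 FPKM, and obst-G was listed at 0 in glia and obst-I at 0 in GNP.

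The ZP genes and forked followed the chitin genes. Of the 7 genes pio, dp, dy, dyl, m, neo and f, 6 were at least 2-fold higher in glia, and the median change was 3.34. The most abundant was dyl, which shapes bristles, at 184 FPKM in glia and 9.51 FPKM in GNP, a change of 4.14. Next came neo, a denticle-shaping gene, at 147 FPKM in glia and 11.6 FPKM in GNP, a change of 3.56. The wing genes m and dy, which lie on the X with 1 gene between them, had nearly the same ratio. For m the levels were 46.0 FPKM in glia and 2.47 FPKM in GNP, a ratio of 18.6 with a counting interval of 17.0 to 20.4. For dy the levels were 19.998 FPKM in glia and 1.08 FPKM in GNP, a ratio of 18.6 with an interval of 16.4 to 21.1. Forked, an actin-bundling protein of bristles and denticles and no matrix component, was encoded at 32.1 FPKM in glia and 2.36 FPKM in GNP, a change of 3.30. The tracheal ZP gene pio lay just inside the 2-fold limit, at 30.3 FPKM in glia and 13.8 FPKM in GNP with a change of 1.08, which was 0.84 after scaling to TPM. Its giant partner dp (dumpy, dpy in BDGP6) was lower in glia, at 3.53 FPKM in glia and 6.49 FPKM in GNP, a change of -0.73.

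A list of 31 further genes of the chitin and apical matrix pathway, outside the rule, was also mostly higher in glia. Of the 30 found in the table, 17 were at least 2-fold higher in glia and 3 at least 2-fold lower, and the median change was 1.23. These counts were 56.7% and 10% of the list, beside 21.2% and 16.4% of all genes. The list was drawn up with earlier results of these data known. The 7 other ZP genes on the list were all at least 2-fold higher, with changes between 1.18 and 4.33. The most changed was mey, at 150 FPKM in glia and 6.53 FPKM in GNP. Gasp, a chitin-binding protein of the tracheal lumen and a close relative of the obst proteins, was at 438 FPKM in glia and 39.3 FPKM in GNP, a change of 3.45. The gene exp (CG13188 in the table), which Kkv needs to deposit chitin, was at 36.7 FPKM in glia and 4.88 FPKM in GNP, and its paralogue reb (CG13183) was at 5.15 FPKM in glia and 1.48 FPKM in GNP. Deacetylase genes of both lists were 2-fold higher in 5 of 6 cases, with Cda9 under 1 FPKM in either library. The Idgf genes, whose products resemble chitinases but do not cut chitin, were less uniform, with 3 of 6 at least 2-fold higher and a median change of 0.88. In the pathway that makes UDP-N-acetylglucosamine, Gfat2 was at 50.5 FPKM in glia and 29.7 FPKM in GNP, and nst at 48.2 FPKM in glia and 70.2 FPKM in GNP, both under 2-fold.

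The 3 lower genes of this list were a chitin-binding protein gene and 2 transcription factor genes of the ecdysone response. Peritrophin-15a was at 0.120 FPKM in glia and 1.97 FPKM in GNP, a change of -1.41. Blimp-1 was at 0.782 FPKM in glia and 3.24 FPKM in GNP, a change of -1.25. The nuclear receptor gene ftz-f1 was at 19.9 FPKM in glia and 60.9 FPKM in GNP, a change of -1.57.

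Markers of the cells that could be in the nuclei moved as follows. The glial marker repo was at 32.0 FPKM in glia and 3.84 FPKM in GNP, and 4 of 9 glial markers were at least 2-fold higher, with levels of 2.84 to 216 FPKM in glia and 2.00 to 98.9 FPKM in GNP. The plain ratio was 8.52 for wrapper, 8.32 for repo, 4.54 for moody and 2.18 for nrv2. Values were higher in glia for 7 of the 9 and lower for 2, with a median change of 0.60. The lower 2 were gcm, which the paper uses as the GNP marker, and Gs2. Levels of gcm were 21.5 FPKM in glia and 40.2 FPKM in GNP, and those of Gs2 57.0 FPKM in glia and 59.2 FPKM in GNP. Of 5 tracheal markers, 1 was at least 2-fold higher and 1 lower, 20% each and so near the shares of all genes. Their summed level was 86.7 FPKM in glia and 72.1 FPKM in GNP. The tracheal regulator trh was at 23.1 FPKM in glia and 24.1 FPKM in GNP, and the FGF receptor gene btl was at 5.90 FPKM in glia and 19.7 FPKM in GNP. The other 3 had higher values in glia, with dys at 2.73 FPKM in glia and 0.666 FPKM in GNP, bs at 14.4 FPKM in glia and 7.73 FPKM in GNP, and esg at 40.5 FPKM in glia and 19.9 FPKM in GNP. The median change of the 5 was 0.82. Of 6 epidermal markers, 2 were at least 2-fold higher and none was 2-fold lower with the added 1. Their summed level was 78.9 FPKM in both libraries and their median change was -0.17. Among these, grh, a regulator of barrier genes, was at 37.4 FPKM in glia and 46.7 FPKM in GNP, and ovo, whose product drives denticle formation and activates several of the ZP genes, was at 13.4 FPKM in glia and 25.7 FPKM in GNP. The 2 higher genes were ple, for tyrosine hydroxylase, at 13.5 FPKM in glia and 1.16 FPKM in GNP, and sha, a gene of cuticular hairs, at 12.7 FPKM in glia and 2.07 FPKM in GNP. At 0.392 FPKM in glia and 1.77 FPKM in GNP, y had a change of -0.99 and a plain ratio of 0.222. Ddc was at 1.54 FPKM in glia and 1.58 FPKM in GNP. None of the tracheal and epidermal markers was at 0 in either library. Most genes were not, since 12772 of all 13623 genes were above 0 in glia and 12637 in GNP. Their part in the levels of the 55 genes was not tested.

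Markers of 3 more cell types were compared in the same way, again beside 21.2% of all genes higher and 16.4% lower. All 6 muscle markers were at least 2-fold higher, with summed levels of 6000 FPKM in glia and 851 FPKM in GNP. Of 5 neuron markers 4 were at least 2-fold higher, with summed levels of 460 FPKM in glia and 105 FPKM in GNP, and elav was at 44.2 FPKM in glia and 76.9 FPKM in GNP. Of 5 plasmatocyte markers only Pxn was at least 2-fold higher, at 55.4 FPKM in glia and 10.2 FPKM in GNP. The other 4 had lower values in glia, with srp at 28.5 FPKM in glia and 45.2 FPKM in GNP. Levels of crq were 21.9 FPKM in glia and 29.5 FPKM in GNP. Hml was at 0.120 FPKM in glia and 0.945 FPKM in GNP, and eater was listed at 0 in glia. Summed levels were 106 FPKM in glia and 85.9 FPKM in GNP, and the median change was -0.41. The median change was 2.85 for the muscle markers and 2.50 for the neuron markers, and over the 55 genes it was 2.50. By group it was 3.69 for the Osi genes, 3.34 for the ZP genes and forked, and 3.05 for the chitin synthesis and organisation genes. It was 0.56 for the chitinases, 0.52 for the obst genes and 1.23 for the other apical matrix genes.

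**Figure D4:**
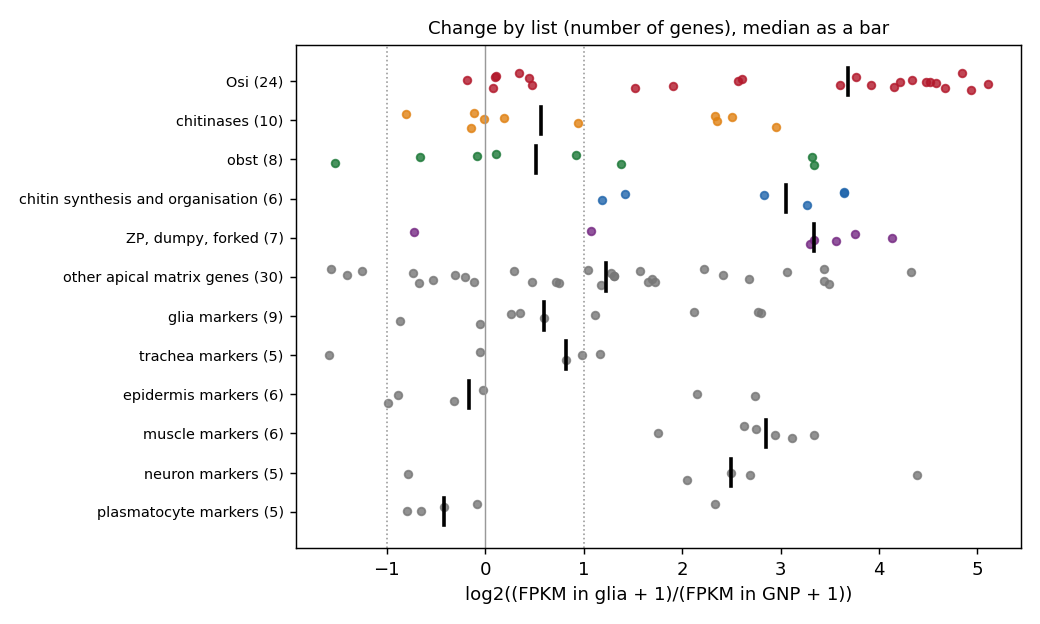
Change of each gene, log2((FPKM in glia + 1)/(FPKM in GNP + 1)), by list, with the median as a black bar, the number of genes in parentheses and dotted lines at 2-fold in either direction. The medians are 3.69 for the Osi genes, 1.23 for the other apical matrix genes, 2.85 for muscle markers and -0.17 for epidermal markers.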

How the data were processed

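Nuclear RNA of 1 glia library and 1 GNP library was sequenced by the authors in single-end reads of 49 bp. The authors mapped the reads with TopHat 1.3.1 to FlyBase transcripts (build dm3) and computed an FPKM value per gene with Cuffdiff 1.3.0. The deposited FPKM values of 13623 genes were used as given. The column headed g was taken as the glia library, because the other carries the GB of the GNP library's title. The 2 columns with p-values and calls of the authors were not used.

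Changes were computed with a pseudocount of 1 FPKM, and 2-fold counts were made without a test, since there was 1 library in each group. The 55 genes and the lists were chosen with earlier results of these data known. Named are genes averaging 1 FPKM or more, changed 2-fold or beside the 2-fold limit, and the extremes of the other lists. Genes named for role or place, and sets by family or tier, were chosen after the values were seen.

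BDGP6 served for names (54 of the 55 genes matched, 2 under another symbol), gene order and transcript lengths. Exons of 11 of the 55 genes overlap another gene (Cht2, Cht6, Cht8, Cht9, Cht12, Osi21, f, knk, obst-F, obst-I and rtv). Strand use in counting is not given in the sources used here, so these values are less certain.

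The depth is not stated with the FPKM values. With fragments assumed to be 200 bases long and genes of 1 transcript of at least 600 bases, the steps of the low values gave 51.9 M mapped reads for glia and 63.5 M for GNP, at which 86.3% and 85.6% of the lowest values lay within 0.1 of a whole read. Reads were estimated in this way for 32 of the 55 genes, with exact 95% intervals of the ratio. Computations were tested on simulated data. Alternatives were a pseudocount of 0.1, 3 scalings, a filter at a mean of 1 FPKM, and limits of 1.5-fold and 4-fold. Software was Python 3.11.15 with pandas 2.3.3, numpy 2.4.6, matplotlib 3.10.9 and scipy 1.17.1.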

Additional observations from a re-analysis of the deposited data

How the results depend on the processing

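No paired analysis was possible because each group has 1 library, so the alternatives say nothing about repeat libraries. Of 57 alternative values for 11 summary results, 48 stayed close to the value given (counts within 1.5 times, medians and ratios within 1.5-fold on the linear scale), and none changed direction. The number of the 55 genes at least 2-fold higher, 36, ran from 34 with TPM scaling to 42 with a pseudocount of 0.1, and was 30 at a limit of 4-fold. The number at least 2-fold lower, 1, became 2 with a pseudocount of 0.1, where obst-J reached -1.25, and 2 with TPM scaling, where Cht11 reached -1.05. It was 4 at a limit of 1.5-fold and 0 at 4-fold. With a pseudocount of 0.1 the median change was 4.47 for Osi genes and 1.12 for obst genes, and 20 Osi genes passed 2-fold. With genes averaging under 1 FPKM left out, it was 3.31 over the 42 genes left, 2.34 over 6 chitinases and 1.15 over 6 obst genes, since fewer genes near 0 then enter. Of 220 alternative values for single genes, 10 moved past the 2-fold limit and 2 (mmy and pio, with TPM) fell under it. A scaling to TPM gave 18.7% of all genes higher and 20.4% lower, and to the upper quartile 24.1% and 13.9%.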
